A study of Mus musculus with 18 samples.

Results

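The arrays of mouse embryonic stem cells that carried an active NFATc3 plasmid alone were set directly against the arrays of cells that carried a Foxd3 plasmid alone, gene by gene. All arrays of both labels were taken, 3 for CA-NFATc3 and 3 for Foxd3, which are 6 of the 18 arrays in the series. Each array was hybridised with biotin-labelled RNA of 1 sample, and the labels call the 3 samples of a group biological replicates. All of these cells were of the CGR8 line, kept in GMEM medium with 10% serum and LIF, the cytokine that holds mouse embryonic stem cells in self-renewal. Plasmids were delivered by lipofection, and Trizol was used to isolate RNA. The groups used here were cells given CA-NFATc3, cells given Foxd3, and cells given the vector control, which serves as the level of transfected cells with neither factor. Another group, given both plasmids, entered the fit and gave its share of the estimate of the spread. The name CA-NFATc3 usually stands for a constitutively active form of NFATc3. The share of cells that took up a plasmid, the time between transfection and lysis, and the plasmids' sequences are not stated in the labels. The readings average over all cells of a sample, so that fewer cells expressing a gene and less RNA per cell cannot be told apart.

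NFATc3 belongs to the NFAT family of transcription factors, which rest in the cytoplasm in phosphorylated form until the calcium-dependent phosphatase calcineurin removes the phosphates and lets them enter the nucleus. In the nucleus NFAT proteins bind a GGAAAA core, often together with AP-1 proteins, and their best known targets include Rcan1, a feedback inhibitor of calcineurin, and Ptgs2, the inducible cyclooxygenase. Foxd3 is a forkhead repressor and pioneer factor of the epiblast and the neural crest, and mouse embryos without it lose their epiblast. Embryonic stem cells can leave the naive state towards a primed epiblast and on to neural or mesendodermal fates, and under other conditions they turn on genes of the primitive endoderm or of the trophectoderm.

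The reading is the MAS5 signal of a probe set, an intensity on a linear scale that the authors' software set to a common trimmed mean. Median signals per array were 56.2 to 63.5 with CA-NFATc3, 55.2 to 61.0 with Foxd3 and 56.6 to 60.6 with the vector, and the log2 signals of replicate arrays had a Pearson r of 0.981 to 0.987 over probe sets. The ratio of 3′ to 5′ signal of the actin control, a sign of RNA integrity, was 2.23 ± 0.0255 with CA-NFATc3, 2.27 ± 0.0828 with Foxd3 and 2.31 ± 0.0340 with the vector (SD, n = 3 each). All 10 markers of embryonic stem cells reached the level for testing, and their summed signal was 108585 to 113265 with CA-NFATc3, 103179 to 107979 with Foxd3 and 108277 to 120617 with the vector. Of 11 fibroblast markers, 6 could be tested, and Col1a1, Dcn, Lum, Postn and Fap stayed under the testing level in all 6 arrays. The number of arrays limits the precision.

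The transcripts of the transfected factors were examined first. The probe set for Foxd3 read 463, 408 and 483 in the CA-NFATc3 arrays, against 232, 244 and 236 in the Foxd3 arrays. The 3 Foxd3 arrays lay below all CA-NFATc3 arrays and below the vector arrays, which read 507, 419 and 404. The Foxd3 transcript thus goes against the label of the arrays named Foxd3, and every direction given below refers to the arrays labelled Foxd3. The log2 difference, CA-NFATc3 minus Foxd3, was 0.84 ± 0.13 (SE of the limma fit), with an adjusted p of 0.000354. The labels do not state where the probes lie relative to the plasmid's insert. The main probe set for Nfatc3 read 1719, 1795 and 1681 in the CA-NFATc3 arrays, against 1740.2, 1734 and 1696 in the Foxd3 arrays, overlapping groups with a log2 difference of 0.01 ± 0.06 (adjusted p 0.974). Neither Nfatc1 (0.36 ± 0.31, adjusted p 0.577), Nfatc2 (-0.03 ± 0.25, 0.968) nor Nfatc4 (0.08 ± 0.10, 0.718) passed the test, and the same holds for the kinase gene Src (-0.01 ± 0.13, 0.983). The other Nfatc3 probe set averaged 325 with CA-NFATc3 and 245 with Foxd3 (log2 difference 0.38, adjusted p 0.166 in limma's fit over probe sets). In this comparison the labels of both groups therefore have no check by a called rise of the transfected gene's own transcript.

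The direct comparison found more genes higher with CA-NFATc3 than lower, and the genes with the largest differences were on the CA-NFATc3 side. Of 11609 genes tested, 1075 were called at an adjusted p under 0.05 (9.26%), 733 higher with CA-NFATc3 (6.31%) and 342 lower (2.95%). Differences of at least 2-fold on the log2(signal + 32) scale numbered 213 among the higher genes and 56 among the lower ones. At least 4-fold they numbered 43 and 7, and at least 8-fold 8 and 0. The median difference over all genes tested was 0.01, and the median SE was 0.12. The arrays of the 2 groups did not overlap in 1067 of the called genes, against 2942 of all genes tested (25.3%). Called genes thus nearly always had separate groups, and where that is said below it adds little to the call. CA-NFATc3 replicate 3 was the brightest array of its group in 478 of the 733 higher genes (65.2%), and Foxd3 replicate 3 in 164 of the 342 lower genes (48%). Without CA-NFATc3 replicate 3, 657 genes were called, 417 of them higher. Without Foxd3 replicate 3, 220 were called lower. The replicate numbers paired the arrays, and a fit blocked on them called 1723 genes, 1081 higher and 642 lower. These include all 1075 genes, in the same direction. Every call lost without 1 array, here and below, was lost in a fit without that block. The call held for 553 of the 1075 genes whichever of the 6 arrays was left out, not counting genes bright in 1 group alone, which drop under the testing filter without 1 of that group's arrays. Of 594 genes of the 30 lists below that had a probe set, 460 were tested, 87 were higher and 46 lower. A dim gene could enter the test through the 3 arrays of 1 group alone and then had to differ. The counts over tested members therefore lean towards calls. They are descriptions, to be read against the shares over all genes tested, 6.31% higher and 2.95% lower.

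**Figure D1:**
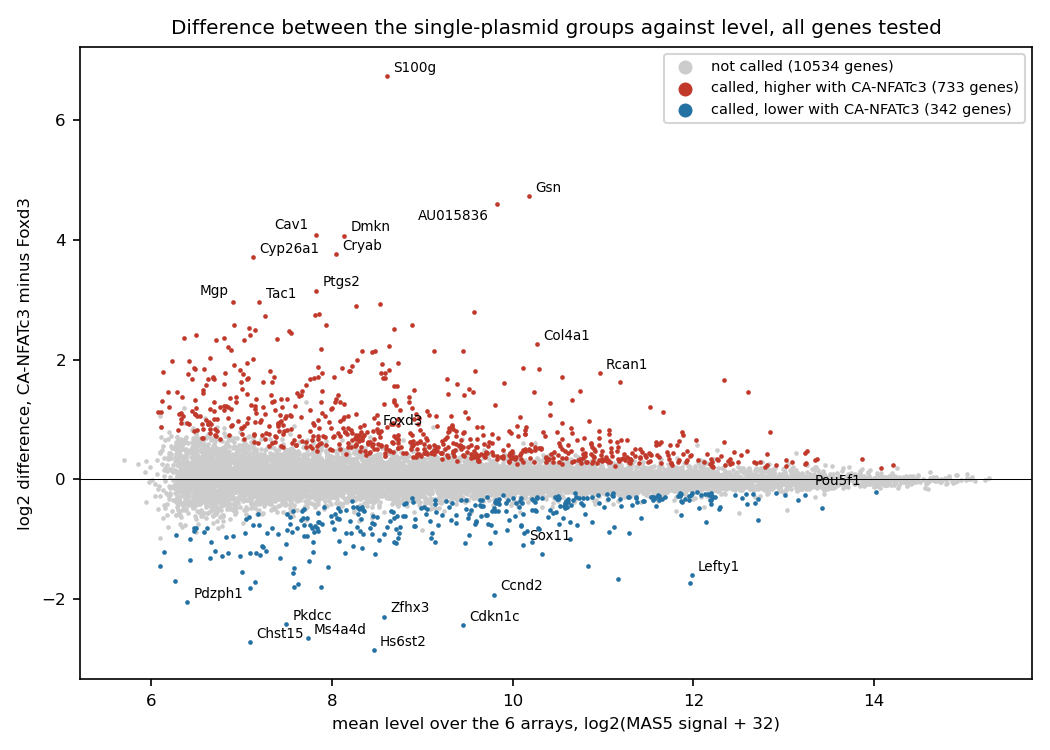
Each point is 1 of the 11609 genes tested, with its mean level over the 6 arrays as log2(MAS5 signal + 32) on the horizontal axis and the log2 difference, CA-NFATc3 minus Foxd3, on the vertical axis. The 733 genes called higher reach a difference of 6.75 (S100g), and the 342 called lower reach -2.86 (Hs6st2).

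The largest rise was in S100g, which encodes calbindin-D9k, a small calcium-binding protein of absorptive epithelia. S100g read 3267, 3876 and 5046 in the CA-NFATc3 arrays, against 9.12, 4.09 and 3.72 in the Foxd3 arrays. All 3 Foxd3 arrays were under 65.8, the signal that a gene had to reach in at least 3 of the 12 arrays of the fit to be tested. S100g was therefore at least 61.8-fold higher with CA-NFATc3, a bound that sets each dim Foxd3 array to that signal (log2 difference 6.75 ± 0.19, adjusted p 6.38e-12). Below, "at least" always has this meaning, and the log2 value of such a gene depends on the 32 added to the signal. The vector arrays, at 1.55 ± 0.0409 (SD, n = 3), were dim as well.

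Gsn, the actin-severing protein gelsolin that calcium activates, read 4771, 6257 and 7076 in the CA-NFATc3 arrays, against 208, 178 and 193 in the Foxd3 arrays (log2 difference 4.74 ± 0.19, adjusted p 4.24e-10). The gene AU015836 read 3652, 4147 and 5816 in the CA-NFATc3 arrays, against 142, 134 and 182 in the Foxd3 arrays (4.61 ± 0.17, adjusted p 1.4e-10). Both had wide gaps between the groups, and the vector arrays lay with or near the Foxd3 arrays, at 187 ± 70.0 for Gsn and 256 ± 41.3 for AU015836 (SD, n = 3). Cav1, the main coat protein of caveolae, read 715, 742 and 1379.8 in the CA-NFATc3 arrays, against 30.2, 24.2 and 15.7 in the Foxd3 arrays, and was at least 14.4-fold higher (adjusted p 1.4e-08). Dmkn, a protein secreted by keratinocytes, was at least 17.5-fold higher, with 1153 ± 340.0 in the CA-NFATc3 arrays and 37.0 ± 8.98 in the Foxd3 arrays. The small heat shock protein gene Cryab was at least 14.7-fold higher, with 992 ± 427 in the CA-NFATc3 arrays and 43.6 ± 28.9 in the Foxd3 arrays. Cav1 and Dmkn were under the testing signal in all 3 Foxd3 arrays, and Cryab in 2 of them, with 70.3 in the other.

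The rest of the 15 largest rises were of mixed function. Cyp26a1, the enzyme that degrades retinoic acid, read 483, 372 and 595 in the CA-NFATc3 arrays, against 1.74, 4.76 and 14.2 in the Foxd3 arrays, and was at least 7.34-fold higher (adjusted p 8.73e-08). Mgp, which encodes matrix Gla protein, an inhibitor of calcification, was at least 4.75-fold higher. Tac1, the precursor of substance P, was at least 5.92-fold higher. The imprinted growth factor gene Igf2 read 908, 845 and 1270.5 in the CA-NFATc3 arrays, against 74.9, 97.2 and 143 in the Foxd3 arrays (2.93 ± 0.23, adjusted p 6.23e-07). Cobll1 averaged 832 ± 233 in the CA-NFATc3 arrays and 86.0 ± 38.1 in the Foxd3 arrays (2.89 ± 0.26). Spink1, a secreted trypsin inhibitor, averaged 2041 ± 644 in the CA-NFATc3 arrays and 262 ± 66.8 in the Foxd3 arrays (2.80 ± 0.24). Lgals7, an epithelial galectin, was at least 8.91-fold higher (adjusted p 7.92e-05). Ptgs2 and Krt19, given below, complete the 15. Separate group ranges were part of the rule that chose these 15 genes and are not a result. All 15 calls held under every alternative in which the gene could be tested.

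**Figure D2:**
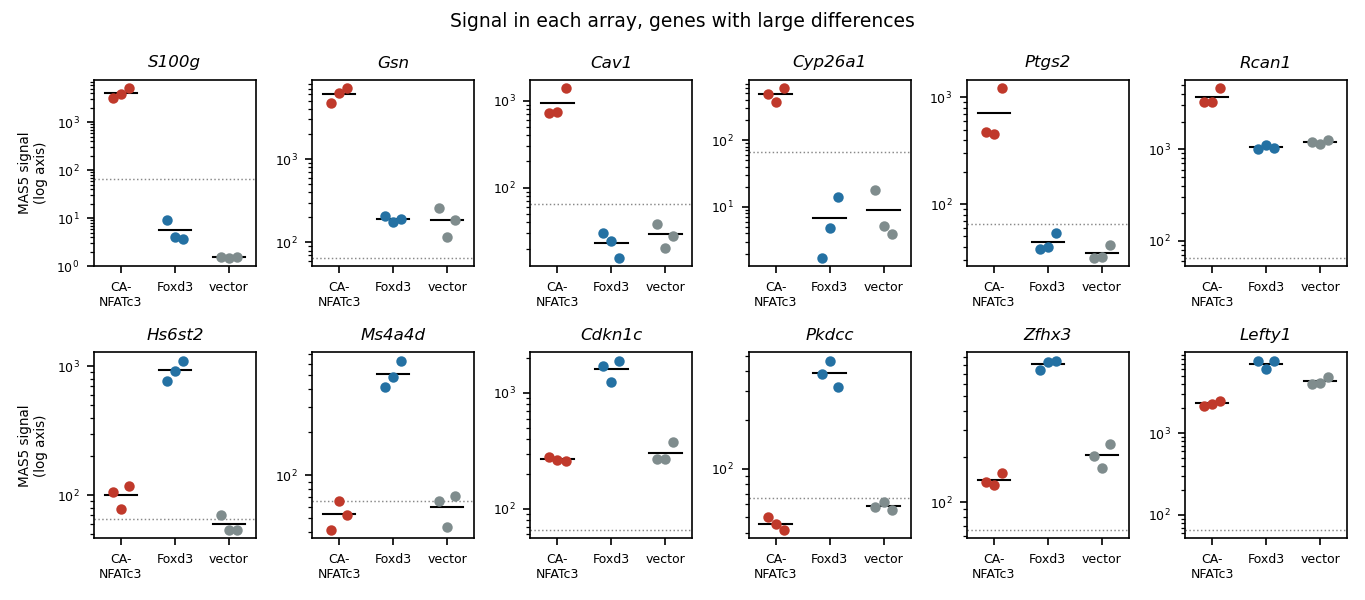
Each panel shows 1 gene, with the MAS5 signal of every array on a log axis, 3 arrays each for CA-NFATc3, Foxd3 and vector, a bar at the group mean and a dotted line at 65.8, the signal needed for testing. S100g, Gsn, Cav1, Cyp26a1, Ptgs2 and Rcan1 were highest in the CA-NFATc3 arrays, and Hs6st2, Ms4a4d, Cdkn1c, Pkdcc, Zfhx3 and Lefty1 were highest in the Foxd3 arrays.

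Known targets of calcineurin and NFAT differed in part. Ptgs2 read 474, 456 and 1215 in the CA-NFATc3 arrays, against 38.4, 39.7 and 54.3 in the Foxd3 arrays, at least 10.9-fold higher with CA-NFATc3 (log2 difference 3.15 ± 0.30, adjusted p 4.72e-06). Rcan1 read 3235, 3274 and 4597 in the CA-NFATc3 arrays, against 1006, 1112 and 1025 in the Foxd3 arrays (1.77 ± 0.11, adjusted p 5.68e-08). The vector arrays were at 35.1 ± 5.77 for Ptgs2 and 1196 ± 60.6 for Rcan1 (SD, n = 3). In the list of NFAT components and targets, 23 genes were tested, 4 were higher, 2 were lower and 17 were not called, with a median of 0.08 against 0.01 over all genes. The other 2 higher members were Egr2 (at least 1.96-fold, adjusted p 0.00438), a zinc finger factor that lost its call with no offset before the log (adjusted p 0.0768), and the orphan nuclear receptor gene Nr4a1 (0.77 ± 0.11, 0.000287). Both lower members lost their calls with 1 array left out. Tnfsf11, the cytokine RANKL, was at -0.83 ± 0.22 and lost its call without CA-NFATc3 replicate 2 or 3 or Foxd3 replicate 1 or 2 (adjusted p 0.0799 to 0.124). It also lost the call when its probe sets were averaged. Cdk4, a kinase of the G1 phase, was at -0.24 ± 0.06 and lost its call without CA-NFATc3 replicate 2 or 3 or Foxd3 replicate 1 or 3 (adjusted p 0.0619 to 0.0732).

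Because the NFAT family binds GGAAAA, forkhead factors bind TAAACA in many known sites and AP-1 binds TGACTCA, promoter windows of RefSeq (assembly GRCm38.p6, 250 bases before to 50 after a start) were searched for these letters on both strands. Of the called genes, 830 of 1075 matched the promoter table. Windows are printed for S100g, the largest rise, for the NFAT targets Rcan1 and Ptgs2, and for Hs6st2, the largest difference in the other direction. The windows of Ccn1, with GGAAAA at 2 places, and of Sox11, with none of the 3 motifs, are not printed. Rcan1 and Hs6st2 have 2 windows each, and only the one with a match is shown. Each is written 5′ to 3′ along the gene, and the capitals mark every match to any of the 3 motifs or its reverse complement.
S100g (chrX:162964550-162964849, minus strand): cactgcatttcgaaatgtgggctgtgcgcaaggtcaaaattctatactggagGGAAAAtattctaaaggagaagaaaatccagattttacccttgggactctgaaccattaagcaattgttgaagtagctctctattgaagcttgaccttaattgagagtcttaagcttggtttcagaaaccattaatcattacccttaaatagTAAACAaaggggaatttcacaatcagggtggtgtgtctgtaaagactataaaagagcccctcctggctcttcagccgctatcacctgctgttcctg
Rcan1 (chr16:92400029-92400328, minus strand): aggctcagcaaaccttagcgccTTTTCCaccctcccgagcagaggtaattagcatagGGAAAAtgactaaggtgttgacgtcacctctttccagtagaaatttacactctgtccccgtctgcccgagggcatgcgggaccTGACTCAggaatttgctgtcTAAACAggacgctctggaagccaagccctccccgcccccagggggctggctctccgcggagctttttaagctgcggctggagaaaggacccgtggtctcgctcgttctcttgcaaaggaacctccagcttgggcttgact
Ptgs2 (chr1:150099781-150100080, plus strand): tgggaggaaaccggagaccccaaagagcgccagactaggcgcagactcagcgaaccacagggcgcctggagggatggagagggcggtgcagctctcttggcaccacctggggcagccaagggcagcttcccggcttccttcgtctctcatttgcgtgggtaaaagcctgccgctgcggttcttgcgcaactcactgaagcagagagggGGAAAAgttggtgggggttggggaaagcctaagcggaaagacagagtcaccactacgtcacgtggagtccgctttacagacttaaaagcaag
Hs6st2 (chrX:51680428-51680727, minus strand): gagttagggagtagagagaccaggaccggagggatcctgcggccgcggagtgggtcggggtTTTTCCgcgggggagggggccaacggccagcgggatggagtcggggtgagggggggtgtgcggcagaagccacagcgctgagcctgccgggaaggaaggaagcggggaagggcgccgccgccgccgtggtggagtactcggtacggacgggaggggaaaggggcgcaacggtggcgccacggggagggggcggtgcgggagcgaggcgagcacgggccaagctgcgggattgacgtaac
The S100g window holds GGAAAA at -198 to -193 from the start and TAAACA at -46 to -41. In the Rcan1 window, GGAAAA stands at -193 to -188 and, on the other strand, at -228 to -223, with TGACTCA at -110 to -104 and TAAACA at -90 to -85. The Ptgs2 window holds GGAAAA at -42 to -37. The Hs6st2 window, of a gene that was lower with CA-NFATc3, also holds it, on the other strand at -189 to -184. The core is short and common: it was in 21.1% of the 763 windows of genes called higher, 22.3% of the 367 windows of genes called lower and 20.1% of the 12062 windows of all genes tested. TAAACA was in 8.52% of the windows of higher genes, 11.4% of those of lower genes and 8.61% of all tested. TGACTCA was in 6.82% of the windows of higher genes, 2.45% of those of lower genes and 3.64% of all tested. These shares are descriptions, without a test, and a match is not a binding site.

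Immediate early genes, which switch on within minutes of a growth signal, were called mostly in 1 direction. Of 18 tested, 9 were higher with CA-NFATc3 and 0 lower, with a list median of 0.49, and with the replicate block 12 were higher and 3 lower. Ccn1, a matricellular protein that YAP and serum response factor induce, read 555, 542 and 938 in the CA-NFATc3 arrays, against 137, 172 and 204 in the Foxd3 arrays (1.78 ± 0.20, adjusted p 2.29e-05). Its groups were separate, and both were above the vector arrays, at 69.9 ± 15.1. Maff, a small MAF factor (0.78 ± 0.15, adjusted p 0.00359), and Nr4a1, given above, kept their calls under every alternative, and Egr2 is given above as well. Egr1, the early growth response factor, read 1807, 1258 and 3932 in the CA-NFATc3 arrays, against 531, 336 and 923 in the Foxd3 arrays, and its call at 1.86 ± 0.45 ended without CA-NFATc3 replicate 3 or Foxd3 replicate 2 (adjusted p 0.0643 to 0.0876). Ier3 (1.67 ± 0.40) lost its call without CA-NFATc3 replicate 2 or 3 or Foxd3 replicate 1 (adjusted p 0.0589 to 0.0642). Fos, a subunit of AP-1, was at 0.94 ± 0.24 and lost its call without CA-NFATc3 replicate 3 or Foxd3 replicate 1 (adjusted p 0.0953 to 0.13). The phosphatase genes Dusp1 (0.67 ± 0.15) and Dusp6 (0.37 ± 0.09) lost theirs without CA-NFATc3 replicate 3 (adjusted p 0.0547) and without CA-NFATc3 replicate 3 or Foxd3 replicate 3 (adjusted p 0.0635 to 0.0716). Without CA-NFATc3 replicate 3, 3 members of the list were called, a count that leaves out members then under the testing filter.

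Genes of the trophectoderm, the outer lineage of the blastocyst, were called mostly higher with CA-NFATc3. Of 24 tested, 11 were higher, 1 was lower and 12 were not called, with a median of 0.58. Elf5, a factor that holds trophoblast stem cells in their state, read 169, 118 and 184 in the CA-NFATc3 arrays, against 2.19, 3.13 and 7.80 in the Foxd3 arrays, at least 2.39-fold higher (adjusted p 1.13e-05). Eomes, a T-box factor of trophoblast and mesendoderm, read 467, 507 and 587 in the CA-NFATc3 arrays, against 132, 149 and 99.0 in the Foxd3 arrays (1.80 ± 0.20, adjusted p 1.62e-05). Krt19, a simple-epithelial keratin, read 463, 479.8 and 839 in the CA-NFATc3 arrays, against 67.2, 80.5 and 30.5 in the Foxd3 arrays, at least 8.35-fold higher (adjusted p 4.31e-06). In all 3 genes the vector arrays lay with the Foxd3 arrays, at 13.7 ± 10.4 for Elf5, 111 ± 29.2 for Eomes and 92.9 ± 25.3 for Krt19. Gata2, a trophoblast and blood factor, was at 1.22 ± 0.17 (adjusted p 0.000184) and Tfap2c, an AP-2 factor of trophoblast and germ cells, at 0.50 ± 0.10 (0.00336). The homeobox genes Rhox6 (1.17 ± 0.15) and Rhox9 (1.00 ± 0.21), the ligand genes Wnt7b (0.99 ± 0.17) and Bmp4 (0.82 ± 0.11) and the receptor gene Fgfr2 (0.85 ± 0.15) were higher too. Peg10 was higher by 1.00 ± 0.29 but lost its call without Foxd3 replicate 1, 2 or 3 or vector replicate 3 (adjusted p 0.0535 to 0.138), and Fgfr2 lost its call when its probe sets were averaged (adjusted p 0.183). The 1 lower member was Phlda2, an imprinted gene that limits placental growth (-0.67 ± 0.09, adjusted p 0.000177). Krt8 (-0.06 ± 0.14, adjusted p 0.875) and Krt18 (-0.24 ± 0.13, 0.341) were not called, and Cdx2 and Gata3, defining factors of the lineage, did not reach the signal for testing.

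Junction proteins and keratins of epithelia overlap with that list through Krt19. Of 24 tested, 9 were higher and 0 lower, with a median of 0.39. The claudin gene Cldn7, a tight junction protein, read 1025, 1255 and 1347 in the CA-NFATc3 arrays, against 377, 491 and 353 in the Foxd3 arrays (1.5 ± 0.16, adjusted p 1.23e-05). Ocln, which encodes occludin of the tight junction, read 677, 699 and 897 in the CA-NFATc3 arrays, against 308, 378 and 339 in the Foxd3 arrays (1.07 ± 0.12, adjusted p 1.87e-05). Both had separate groups. The transcription factor gene Grhl3 (0.62 ± 0.10, adjusted p 0.000653) and the desmosomal plakophilin gene Pkp2 (0.57 ± 0.10, 0.00102) differed less. Tjp3 (0.67 ± 0.18) lost its call without CA-NFATc3 replicate 1 or 2 or Foxd3 replicate 1 or 2 (adjusted p 0.0526 to 0.119). Cldn4 (0.54 ± 0.14) lost its call without CA-NFATc3 replicate 2 or 3 or Foxd3 replicate 1 or 3 (adjusted p 0.0658 to 0.111). Dsp (0.51 ± 0.12) lost its call without CA-NFATc3 replicate 3 or Foxd3 replicate 1 (adjusted p 0.0602 to 0.0862), and Epcam (0.29 ± 0.07) lost it without CA-NFATc3 replicate 3 (adjusted p 0.0547). Epcam was also not called when its probe sets were averaged.

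Primitive endoderm is the inner lineage that faces the blastocyst cavity and secretes a basement membrane. Of 20 tested genes of the primitive and visceral endoderm, 10 were higher with CA-NFATc3, 0 were lower and 10 were not called, with a median of 0.61. The basement membrane collagen gene Col4a1 read 2358, 2340.2 and 3439.8 in the CA-NFATc3 arrays, against 518, 477 and 605 in the Foxd3 arrays (2.26 ± 0.13, adjusted p 2.94e-08). Its partner chain Col4a2 read 612, 624 and 957 in the CA-NFATc3 arrays, against 158, 221 and 159 in the Foxd3 arrays (1.83 ± 0.17, adjusted p 2.94e-06). The 2 chains are encoded side by side and share a promoter, and in both the groups were separate. The endodermal SOX factor gene Sox17 read 208, 99.97 and 166 in the CA-NFATc3 arrays, against 27.7, 29.1 and 20.6 in the Foxd3 arrays, at least 2.40-fold higher (adjusted p 0.000354). Cited1, a transcriptional co-activator, was at least 5.95-fold higher (adjusted p 3.31e-05). Srgn, a secretory granule proteoglycan, was at least 4.42-fold higher, and Lrp2, the endocytic receptor megalin, was at 1.72 ± 0.24 (adjusted p 0.000234).

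Other endoderm genes gave weaker or no calls. Serpinh1, a collagen chaperone, was at 0.55 ± 0.12 (adjusted p 0.0053). Sox7 (0.84 ± 0.20) lost its call without CA-NFATc3 replicate 3 (adjusted p 0.0871) and when its probe sets were averaged (0.253). Dab2 (0.61 ± 0.18) and Lamb1 (0.34 ± 0.08) lost theirs without CA-NFATc3 replicate 1, 2 or 3, Foxd3 replicate 1, 2 or 3, vector replicate 2 or both-plasmid replicate 1, 2 or 3 (adjusted p 0.0547 to 0.162) and without CA-NFATc3 replicate 1 or 3 or Foxd3 replicate 3 (adjusted p 0.0553 to 0.0646). Lamb1 also lost its call when its probe sets were averaged. Without CA-NFATc3 replicate 1 and without CA-NFATc3 replicate 3 the list had 6 and 5 higher members, not counting members then under the testing filter. Gata6, a defining factor of the lineage, was not called (0.62 ± 0.22, adjusted p 0.103) but passed with array weights (0.0357). Gata4, Pdgfra, Ttr and Afp did not reach the signal for testing. In the list for the primitive streak, mesendoderm and definitive endoderm, 8 genes were tested, 3 were higher and 0 lower, with a median of 0.37. Cyp26a1 and Eomes, given above, were 2 of them. The last was the ligand gene Wnt3a, at least 1.30-fold higher (adjusted p 0.00943), which lost its call without CA-NFATc3 replicate 3 (adjusted p 0.0528). Without CA-NFATc3 replicate 3 that list had 1 higher member, since Cyp26a1 was then under the testing filter.

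**Figure D3:**
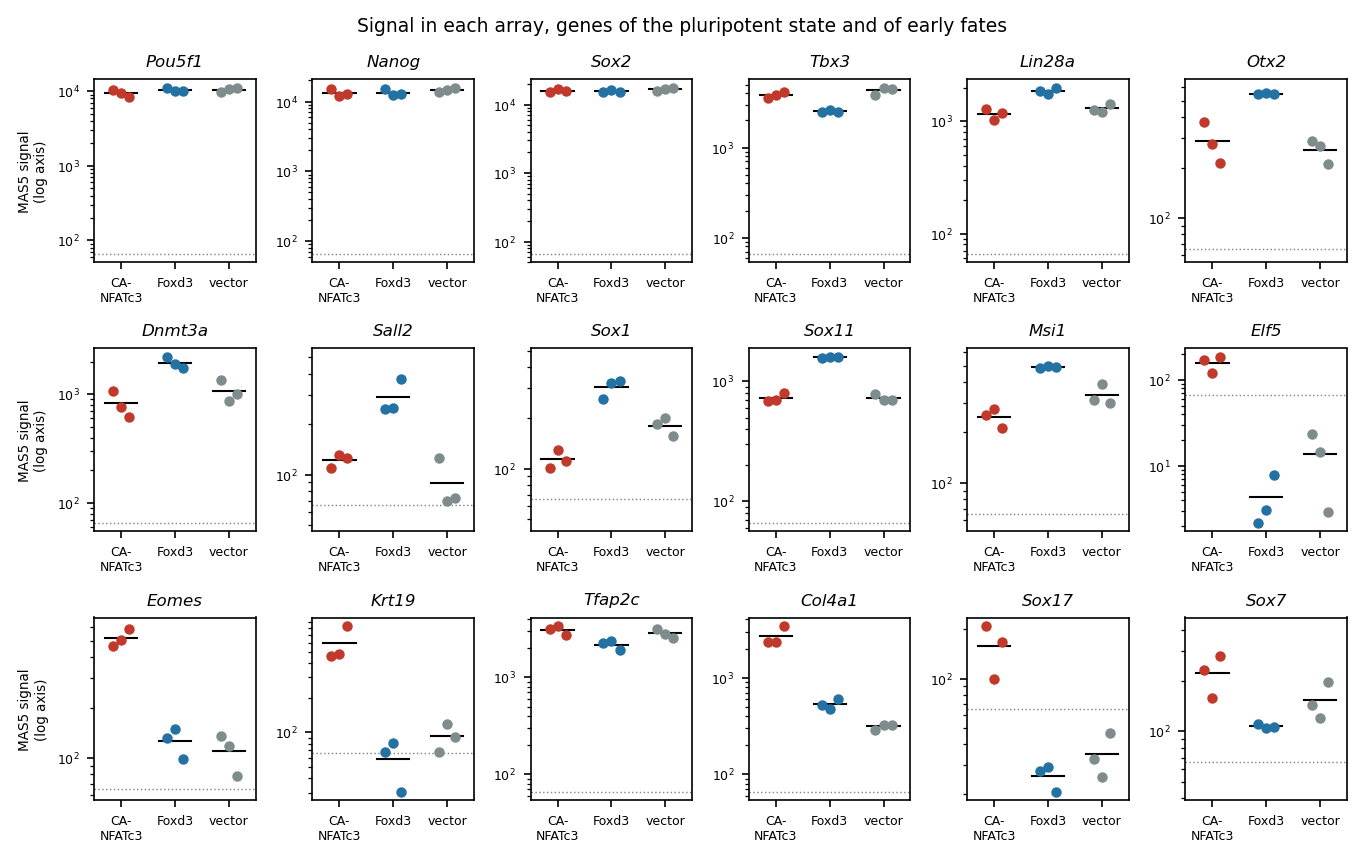
Each panel shows 1 gene, with the MAS5 signal of every array on a log axis, 3 arrays each for CA-NFATc3, Foxd3 and vector, a bar at the group mean and a dotted line at 65.8. Pou5f1, Nanog and Sox2 overlapped between the CA-NFATc3 and Foxd3 arrays, Otx2, Dnmt3a, Sall2, Sox1, Sox11 and Msi1 were highest in the Foxd3 arrays, and Elf5, Eomes, Krt19, Col4a1 and Sox17 were highest in the CA-NFATc3 arrays.

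Genes of caveolae, of the YAP pathway and of calcium-dependent membrane binding stood on the same side. Of 13 tested, 8 were higher with CA-NFATc3 and 0 lower, with a median of 0.90. Cav2, the partner of Cav1, read 218, 223 and 365 in the CA-NFATc3 arrays, against 27.4, 2.15 and 26.8 in the Foxd3 arrays, at least 4.09-fold higher (adjusted p 6.17e-06). Cavin1, the adaptor that caveolae need to form, read 997, 1024 and 1354 in the CA-NFATc3 arrays, against 384, 405 and 414 in the Foxd3 arrays (1.40 ± 0.11, adjusted p 6.97e-07). Cav1, given above, was another of the 8. The annexin genes, whose products bind membranes in the presence of calcium, were higher in Anxa1 (1.42 ± 0.23, adjusted p 0.000643), Anxa2 (1.71 ± 0.21, 6.16e-05) and Anxa3 (0.90 ± 0.19, 0.00489). Tead1, the DNA-binding partner of YAP, was at 0.62 ± 0.09 (adjusted p 0.000234). Among actin regulators and calcium-binding proteins, 16 were tested, 7 were higher and 0 lower, with a median of 0.30. Besides S100g and Gsn these included S100a6 (1.62 ± 0.12, adjusted p 4.51e-07), the galectin gene Lgals1 (1.46 ± 0.11, 5.39e-07) and Anxa5 (1.19 ± 0.15, 7.76e-05). Lgals1 read 10579, 8833 and 11652 in the CA-NFATc3 arrays, against 3520.3, 3735 and 3920.3 in the Foxd3 arrays, with separate groups. S100a10 (0.25 ± 0.07) lost its call without CA-NFATc3 replicate 1 or 3 or Foxd3 replicate 1, 2 or 3 (adjusted p 0.0633 to 0.211), and Tmsb4x (0.24 ± 0.06) lost it without CA-NFATc3 replicate 1 or 3 or Foxd3 replicate 2 or 3 (adjusted p 0.0506 to 0.0865).

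Genes of mesenchyme and fibrillar matrix were split. In the fibroblast and matrix list, 10 were tested, 3 were higher and 0 lower, with a median of 0.33. The fibrillar collagen genes Col5a2 and Col3a1 were at least 5.42-fold (adjusted p 9.67e-06) and at least 3.35-fold higher (6.22e-06). The metalloproteinase inhibitor gene Timp2 was at 0.92 ± 0.14 and lost its call when its probe sets were averaged (adjusted p 0.055). The summed signal of the 11 fibroblast markers was 1139 to 1332 with CA-NFATc3, 996 to 1108 with Foxd3 and 883 to 954 with the vector, and Col3a1 was the 1 marker of the list that was called. Their part in these differences was not tested.

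In the list of epithelial-mesenchymal transition, 14 were tested, 3 were higher and 3 lower, with a median of 0.16. Twist1, a basic helix-loop-helix factor of mesenchyme and neural crest, read 247, 163 and 230.0 in the CA-NFATc3 arrays, against 62.9, 23.6 and 47.5 in the Foxd3 arrays, at least 3.24-fold higher (adjusted p 0.000547). S100a6, given above, and Fn1, the matrix protein fibronectin (0.29 ± 0.09), were the other 2 higher members, and the call of Fn1 ended without CA-NFATc3 replicate 1, 2 or 3, Foxd3 replicate 1, 2 or 3, vector replicate 3 or both-plasmid replicate 2 or 3 (adjusted p 0.0534 to 0.181). Averaging the probe sets of Fn1 ended its call as well. Lower with CA-NFATc3 than Foxd3 were Cdh2, the neural and mesodermal N-cadherin (-0.80 ± 0.16, adjusted p 0.0032), Zeb1, a repressor of epithelial genes (-0.67 ± 0.12, 0.00177), and the filament protein gene Vim (-0.34 ± 0.08, 0.00875). Vim lost its call without Foxd3 replicate 3 (adjusted p 0.052), and Zeb1 when its probe sets were averaged (adjusted p 0.053).

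The core pluripotency factors were not among the genes called between CA-NFATc3 and Foxd3. Pou5f1 read 10249, 9599 and 8306 in the CA-NFATc3 arrays, against 11098, 10211 and 10091 in the Foxd3 arrays (-0.16 ± 0.08, adjusted p 0.259). Nanog read 15270.4, 11836 and 12724 in the CA-NFATc3 arrays, against 14978, 12321 and 12707 in the Foxd3 arrays (-0.01 ± 0.09, adjusted p 0.972). Sox2 read 15459.9, 16949 and 15644 in the CA-NFATc3 arrays, against 15083, 16318 and 15385 in the Foxd3 arrays (0.04 ± 0.06, adjusted p 0.799). Of 31 naive and core pluripotency genes tested, 2 were higher, 3 lower and 26 not called, with a median of 0.04. The 2 higher were Fbxo15, an F-box gene that Oct3/4 drives (0.62 ± 0.08, adjusted p 8.83e-05), and the naive factor gene Tbx3 (0.60 ± 0.08, 7.92e-05), whose call ended when its probe sets were averaged (adjusted p 0.267). The 3 lower were Lin28a, an RNA-binding protein that holds back let-7 maturation (-0.66 ± 0.09, 0.000153), the nuclear receptor gene Nr0b1 (-0.50 ± 0.07, 0.000121) and Dppa2 (-0.33 ± 0.07, 0.0039). Dppa2 lost its call when its probe sets were averaged (adjusted p 0.0524).

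The naive factors Klf2 (-0.12 ± 0.08, adjusted p 0.473), Klf4 (0.22 ± 0.08, 0.122), Esrrb (0.11 ± 0.06, 0.33), Tfcp2l1 (0.28 ± 0.09, 0.0832) and Prdm14 (-0.14 ± 0.08, 0.325) were not called either. With the replicate block Klf4 (adjusted p 0.0326) and Tfcp2l1 (0.0312) passed. Tfcp2l1 also passed with array weights, with only the 2 groups in the fit and without vector replicate 1. The count of members called higher was 8 with the replicate block, 5 with array weights, 5 with only the 2 groups in the fit, 4 without vector replicate 1 and 1 when probe sets were averaged.

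Genes of the primed epiblast were called in the opposite direction, higher with Foxd3. Of 18 tested, 0 were higher with CA-NFATc3, 8 were lower and 10 were not called, with a median of -0.48. Lefty1, a secreted inhibitor of Nodal, read 2139, 2288 and 2475 in the CA-NFATc3 arrays, against 7636, 5979 and 7524 in the Foxd3 arrays (-1.60 ± 0.10, adjusted p 8.9e-08). The vector arrays lay between the 2 groups, at 4259.9 ± 470.0. The de novo DNA methyltransferase gene Dnmt3a read 1080.3, 767 and 625 in the CA-NFATc3 arrays, against 2210.0, 1916 and 1743 in the Foxd3 arrays (-1.24 ± 0.20, adjusted p 0.000559). Sall2, a zinc finger factor gene, read 109, 132 and 125 in the CA-NFATc3 arrays, against 245, 250.4 and 374 in the Foxd3 arrays (-1.04 ± 0.19, adjusted p 0.00168). Otx2, a homeobox factor that directs the primed state, read 376, 275 and 214 in the CA-NFATc3 arrays, against 546, 556 and 551 in the Foxd3 arrays (-0.90 ± 0.16, adjusted p 0.00132). In all 4 genes the Foxd3 arrays lay above every CA-NFATc3 array.

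The other 4 called members were Zic5 (-0.81 ± 0.12, adjusted p 0.0003), Cdh2, given above, Sox4 (-0.72 ± 0.07, 7.06e-06) and Foxp1 (-0.58 ± 0.09, 0.000486), and Sox4 lost its call when its probe sets were averaged (adjusted p 0.0959). The second de novo methyltransferase gene, Dnmt3b, was at -0.52 ± 0.16 and missed the threshold (adjusted p 0.0611). It passed with the replicate block (0.0167), probe sets averaged, only the 2 groups in the fit, all 18 arrays or array weights. Leaving out vector replicate 1 or both-plasmid replicate 2 also let it pass. Pou3f1, a POU factor of the epiblast and neural plate, read 378, 305 and 327 in the CA-NFATc3 arrays, against 449, 328 and 282 in the Foxd3 arrays, overlapping groups (-0.04 ± 0.22, adjusted p 0.945). Fgf5, another epiblast gene, did not reach the signal for testing.

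Neural genes were called mostly in the same direction. Of 20 neuroectoderm genes tested, 1 was higher with CA-NFATc3, 6 were lower and 13 were not called, with a median of -0.30. Sox1, the earliest marker of the neural plate in the mouse, read 101, 128 and 111 in the CA-NFATc3 arrays, against 259, 323 and 334 in the Foxd3 arrays (-1.21 ± 0.19, adjusted p 0.000426). Sox11, a SOXC factor of young neurons, read 690.2, 696 and 802 in the CA-NFATc3 arrays, against 1559.8, 1598 and 1608 in the Foxd3 arrays (-1.09 ± 0.08, adjusted p 5.19e-07). Both had separate groups, and the vector arrays were at 179.8 ± 21.9 for Sox1 and 728 ± 52.6 for Sox11. The RNA-binding protein gene Msi1 was at -0.91 ± 0.13 (adjusted p 0.000217), and lost its call when its probe sets were averaged (0.415). Pax6, a master regulator of eye and forebrain, was at least 2.24-fold lower with CA-NFATc3 (adjusted p 0.00839), and lost its call without Foxd3 replicate 3 (adjusted p 0.0554). Cntfr (-0.59 ± 0.17) lost its call without CA-NFATc3 replicate 1, 2 or 3, Foxd3 replicate 1, 2 or 3, vector replicate 3 or both-plasmid replicate 3 (adjusted p 0.0523 to 0.169). Averaging its probe sets ended that call too. The neuronal stathmin gene Stmn2 (-0.27 ± 0.06) lost its call without Foxd3 replicate 2 or 3 (adjusted p 0.0548 to 0.0686). Without Foxd3 replicate 3, 3 members were called lower. The 1 higher member was Sox21, a SOXB2 repressor, at 1.05 ± 0.14 (adjusted p 0.000116).

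The summed signal of the 6 neuron markers was 4841 to 5024 with CA-NFATc3, 5593 to 6215 with Foxd3 and 5224 to 5433 with the vector. Of the markers 5 were tested and 1 was called lower, Stmn2, which is also a member of the neuroectoderm list and carried most of the sum (3623 ± 75.7 with CA-NFATc3 and 4382 ± 303 with Foxd3). Tubb3 (-0.30, adjusted p 0.248), Elavl3 (-0.11, 0.785), Neurod1 (-0.41, 0.365) and Map2 (0.26, 0.348) were not called, and Dcx was under the testing signal in all 6 arrays. The part of such cells in the neural differences was not tested. In the neural crest list, 5 genes were tested and 2 were higher with CA-NFATc3, Twist1 and Foxd3 itself.

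**Figure D4:**
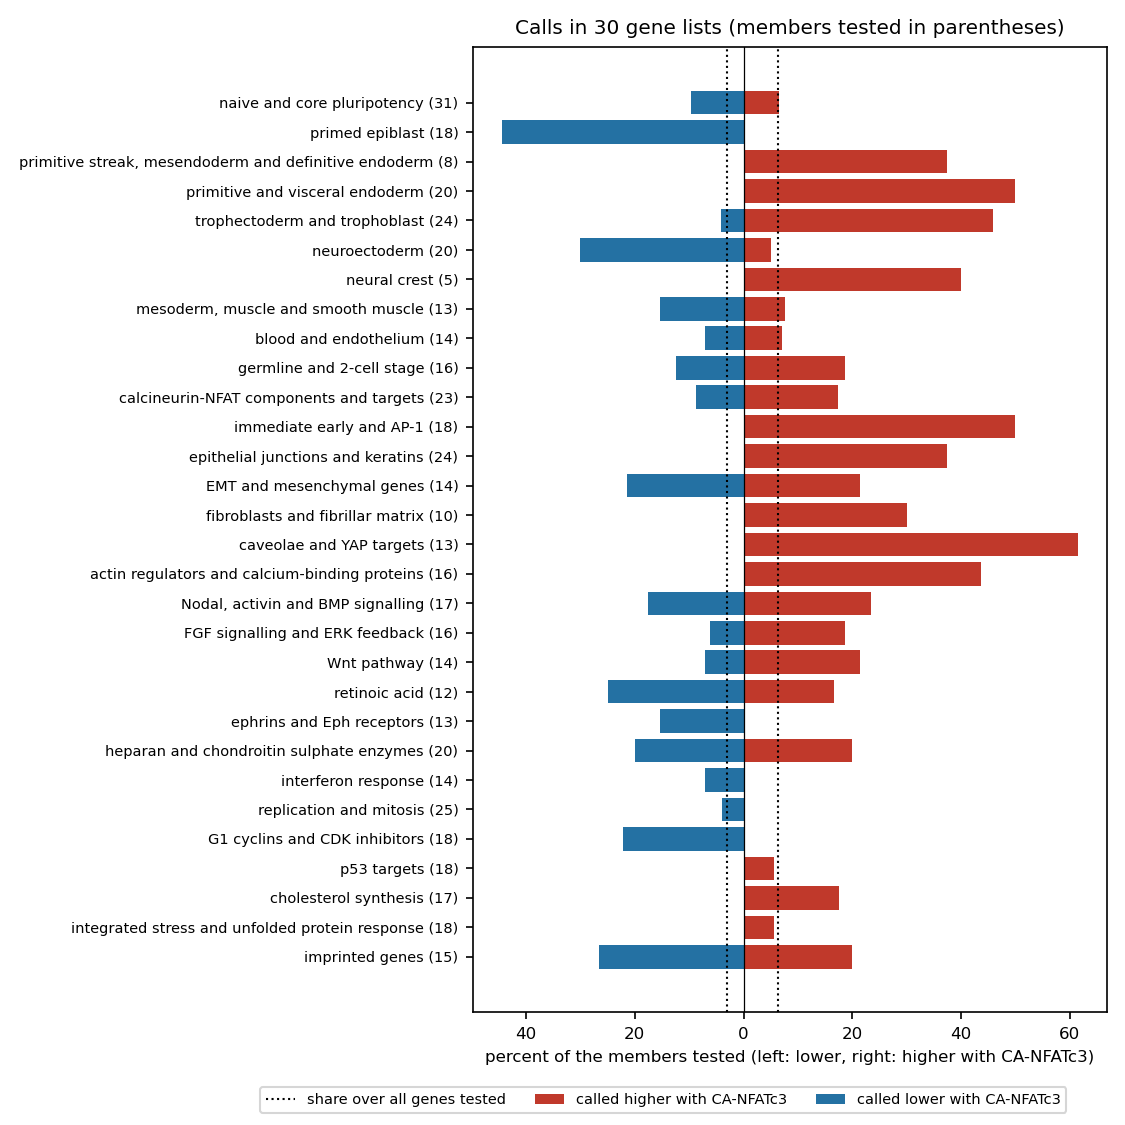
For each of 30 gene lists, the bar to the right is the percent of tested members called higher with CA-NFATc3 and the bar to the left the percent called lower, with the number tested in parentheses and dotted lines at the shares over all genes tested, 6.31% higher and 2.95% lower. Caveolae and YAP targets had 8 of 13 higher, and the primed epiblast had 8 of 18 lower.

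The largest differences towards Foxd3 were led by enzymes that sulphate glycosaminoglycans, the sugar chains of cell-surface proteoglycans that bind growth factors. Hs6st2, a heparan sulphate 6-O-sulphotransferase, read 105, 77.8 and 117 in the CA-NFATc3 arrays, against 769, 913 and 1103 in the Foxd3 arrays (-2.86 ± 0.15, adjusted p 8.88e-09). Chst15, a chondroitin sulphate sulphotransferase, read 65.4, 9.28 and 5.10 in the CA-NFATc3 arrays, against 318, 267 and 375 in the Foxd3 arrays, at least 4.87-fold lower with CA-NFATc3 (adjusted p 2.18e-05). The groups were far apart in both, and the vector arrays were at 59.6 ± 9.62 for Hs6st2 and 80.6 ± 22.3 for Chst15. Of 20 genes of heparan and chondroitin sulphate enzymes and their core proteins tested, 4 were higher and 4 lower, with a median of 0.04. Sulf1, which removes 6-O-sulphate, was lower with CA-NFATc3 (-1.04 ± 0.10, adjusted p 6.17e-06). Sdc4, the core protein syndecan-4, was higher (1.48 ± 0.19, 7.82e-05), as was the 3-O-sulphotransferase gene Hs3st3b1 (1.29 ± 0.21, 0.000832). The smaller differences lost their calls in some of the fits with 1 array left out. Chst11 (0.55 ± 0.15) lost its call without CA-NFATc3 replicate 2 or 3 or Foxd3 replicate 1 or 3 (adjusted p 0.0689 to 0.15). Glce (0.41 ± 0.12) lost it without CA-NFATc3 replicate 2 or 3 or Foxd3 replicate 1 or 3 (adjusted p 0.0569 to 0.165). Hs2st1 (-0.34 ± 0.08) lost it without Foxd3 replicate 3 (adjusted p 0.0523). The calls of Chst11, Glce and Hs2st1 also ended when probe sets were averaged.

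The other 13 of the 15 largest falls were led by Ms4a4d. It encodes a tetraspan membrane protein and read 41.4, 65.7 and 52.99 in the CA-NFATc3 arrays, against 411, 483 and 630.2 in the Foxd3 arrays, at least 7.73-fold lower with CA-NFATc3 (adjusted p 5.39e-07). Pkdcc, a secreted tyrosine kinase, read 49.9, 45.2 and 41.8 in the CA-NFATc3 arrays, against 383, 465 and 318 in the Foxd3 arrays, at least 5.91-fold lower (adjusted p 9.02e-08). Zfhx3, a large homeodomain factor, read 136, 129 and 156 in the CA-NFATc3 arrays, against 742, 840.1 and 857 in the Foxd3 arrays (-2.29 ± 0.15, adjusted p 9.34e-08). Separate groups were part of the rule that chose the 15 largest falls. The calcitonin receptor gene Calcr was at -1.80 ± 0.18, the lipid droplet protein gene Cidea at -1.80 ± 0.22, the Wnt receptor gene Fzd2 at -1.76 ± 0.24 and the surface glycoprotein gene Cd24a at -1.74 ± 0.09, with adjusted p of 6.17e-06, 6.06e-05, 0.000125 and 1.08e-08. Pdzph1 was at least 2.17-fold lower, the secreted protein gene Tafa4 at least 3.48-fold and Cbln4, a secreted synapse organiser, at least 1.70-fold. All 15 of the largest falls, including those named next, kept their calls under every alternative in which they could be tested.

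Regulators of the G1 phase were among them. Cdkn1c, the imprinted gene of the CDK inhibitor p57, read 282, 263 and 259 in the CA-NFATc3 arrays, against 1714, 1232 and 1899 in the Foxd3 arrays (-2.43 ± 0.18, adjusted p 4.51e-07). Cyclin D2, encoded by Ccnd2, read 648, 306 and 374 in the CA-NFATc3 arrays, against 1973, 1088 and 2257 in the Foxd3 arrays (-1.93 ± 0.37, adjusted p 0.00285). In both the Foxd3 arrays were the higher ones, and the lack of overlap was again part of the rule. Of 18 genes of G1 cyclins and CDK inhibitors tested, 0 were higher and 4 lower, with a median of -0.06. The other 2 were Ccnd1 (-0.41 ± 0.11), which lost its call without CA-NFATc3 replicate 2 or 3 or Foxd3 replicate 1 or 3 (adjusted p 0.0793 to 0.121), and Cdk4, given above. Of 25 genes of replication and mitosis, 0 were higher and 1, the helicase gene Mcm2 (-0.29 ± 0.08), was lower, and its call ended without any 1 of the 6 arrays (adjusted p 0.0541 to 0.157).

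Signalling pathways divided between the sides. Of 17 genes of Nodal, activin and BMP signalling, 4 were higher and 3 lower, with a median of -0.15. The inhibitory SMAD gene Smad6, a feedback target of BMP, read 656, 574 and 896 in the CA-NFATc3 arrays, against 159.7, 127 and 122 in the Foxd3 arrays (2.12 ± 0.16, adjusted p 4.51e-07). The ligand gene Bmp4 averaged 2819.6 ± 286 in the CA-NFATc3 arrays and 1597 ± 274 in the Foxd3 arrays (0.82 ± 0.11, 0.000178). Bmp2 was at least 1.60-fold higher and lost its call without CA-NFATc3 replicate 2 (adjusted p 0.0696). Smad7 (0.51 ± 0.08, adjusted p 0.000517) lost its call when its probe sets were averaged (0.0775). Lower with CA-NFATc3 were Lefty1, given above, and Fst, the activin antagonist follistatin, which read 76.7, 156 and 133 in the CA-NFATc3 arrays, against 294, 462 and 404 in the Foxd3 arrays (-1.46 ± 0.20, adjusted p 0.000153). Acvr2b, an activin receptor (-0.48 ± 0.14), lost its call without CA-NFATc3 replicate 1 or 3, Foxd3 replicate 1 or 3, vector replicate 3 or both-plasmid replicate 3 (adjusted p 0.0505 to 0.13). Averaging its probe sets ended the call too.

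In the retinoic acid list 12 were tested, 2 were higher (Cyp26a1, given above, and Crabp2) and 3 lower, with a median of 0.02. The higher count was 1 without any 1 of the CA-NFATc3 arrays or with the filter on the mean, since Cyp26a1 was then under the testing filter. Crabp2, which carries retinoic acid to its receptor, read 1136, 904 and 1459.9 in the CA-NFATc3 arrays, against 309, 172 and 238 in the Foxd3 arrays (2.15 ± 0.20, adjusted p 4.41e-06). Both groups were above the vector arrays, at 119 ± 25.5. Meis2, a homeobox factor gene that retinoic acid induces, read 52.4, 31.7 and 39.2 in the CA-NFATc3 arrays, against 221, 173 and 295 in the Foxd3 arrays, at least 3.49-fold lower with CA-NFATc3 (adjusted p 7.42e-06). Stra8, the retinoic acid target of meiotic germ cells, read 109.9, 74.6 and 124 in the CA-NFATc3 arrays, against 276, 328 and 330.5 in the Foxd3 arrays (-1.36 ± 0.18, adjusted p 8.75e-05). The receptor gene Rarg was at -0.67 ± 0.14 (0.00545) and lost its call when its probe sets were averaged (0.0713). The vector arrays were at 76.5 ± 4.75 for Meis2 and 319 ± 72.5 for Stra8.

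In the Wnt list 14 were tested, 3 were higher and 1 lower, with a median of 0.08. Tcf7l1, a repressor that primes naive cells for exit, read 1073, 1213 and 1016 in the CA-NFATc3 arrays, against 2009.5, 2071 and 2612 in the Foxd3 arrays (-0.99 ± 0.10, adjusted p 7.42e-06), with separate groups. Tcf7l2, another nuclear effector of the pathway, was higher (0.83 ± 0.16, 0.00273), as were the ligand genes Wnt7b, given above, and Wnt6 (0.81 ± 0.23). Wnt6 lost its call without CA-NFATc3 replicate 1 or 3 or Foxd3 replicate 2 or 3 (adjusted p 0.0559 to 0.197), and Tcf7l2 when its probe sets were averaged (adjusted p 0.0589). In the FGF list 16 were tested, 3 were higher (Fgfbp1, Fgfr2 and Dusp6) and 1 lower (Il17rd), with a median of 0.06. Fgfbp1, a carrier of secreted FGF, was at 1.00 ± 0.24 and lost its call without CA-NFATc3 replicate 3 (adjusted p 0.0875). Il17rd, an inhibitor of FGF signalling, was at -0.34 ± 0.08 and lost its call without CA-NFATc3 replicate 3 or Foxd3 replicate 1 (adjusted p 0.0696 to 0.0718). Averaging its probe sets ended the call too (adjusted p 0.126). Among ephrins and their receptors 13 were tested, 0 were higher and 2 lower, the ligand genes Efnb2 (-1.06 ± 0.21, adjusted p 0.00328) and Efnb1 (-0.91 ± 0.22, 0.0149), with a median of -0.04. Efnb1 lost its call without CA-NFATc3 replicate 1 or Foxd3 replicate 3 (adjusted p 0.0669 to 0.0945), and Efnb2 when its probe sets were averaged (0.365).

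Where each group stood relative to the vector was read from 2 further contrasts of the same fit. These share the 3 vector arrays, so that an error in those arrays enters both, and their values are given side by side only. CA-NFATc3 against vector had 680 called genes (5.86%), 536 higher (4.62%) and 144 lower (1.24%). Foxd3 against vector had 334 (2.88%), 198 higher (1.71%) and 136 lower (1.17%). In the endoderm list 9 were higher and 0 lower with CA-NFATc3 against vector, and 1 higher and 0 lower with Foxd3 against vector. In the trophectoderm list the counts were 10 higher and 1 lower with CA-NFATc3, and 1 higher and 3 lower with Foxd3. In the primed epiblast list they were 3 higher and 4 lower with CA-NFATc3, and 7 higher and 0 lower with Foxd3. The naive and core pluripotency list had 0 higher and 5 lower with CA-NFATc3, and 1 higher and 9 lower with Foxd3.

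Single genes stood in different places relative to the vector. Efnb2, an ephrin of arteries and of the early embryo, read 479, 536 and 689.7 in the CA-NFATc3 arrays, against 1099, 986 and 1629.7 in the Foxd3 arrays, and the vector arrays read 86.5, 132 and 106. It was above the vector by 2.10 ± 0.21 with CA-NFATc3 (adjusted p 9.96e-06) and by 3.16 ± 0.21 with Foxd3 (7.03e-07), and lower with CA-NFATc3 than Foxd3. Pou3f1 was above the vector by 1.19 ± 0.22 with CA-NFATc3 (adjusted p 0.00291) and by 1.24 ± 0.22 with Foxd3 (0.00502), and not called between them. Col4a1 was above the vector by 2.97 ± 0.13 with CA-NFATc3 (1.08e-09) and by 0.70 ± 0.13 with Foxd3 (0.00688). Tbx3 was at -0.16 ± 0.08 with CA-NFATc3 (0.339) and -0.75 ± 0.08 with Foxd3 (2.96e-05) against the vector. Lefty1 was at -0.88 ± 0.10 with CA-NFATc3 (5.88e-05) and 0.72 ± 0.10 with Foxd3 (0.000974). Stra8 was at -1.37 ± 0.18 with CA-NFATc3 (0.000114) and -0.01 ± 0.18 with Foxd3 (0.989). Hs6st2 was at 0.52 ± 0.15 with CA-NFATc3 (0.0521) and 3.38 ± 0.15 with Foxd3 (3.72e-09).

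**Figure D5:**
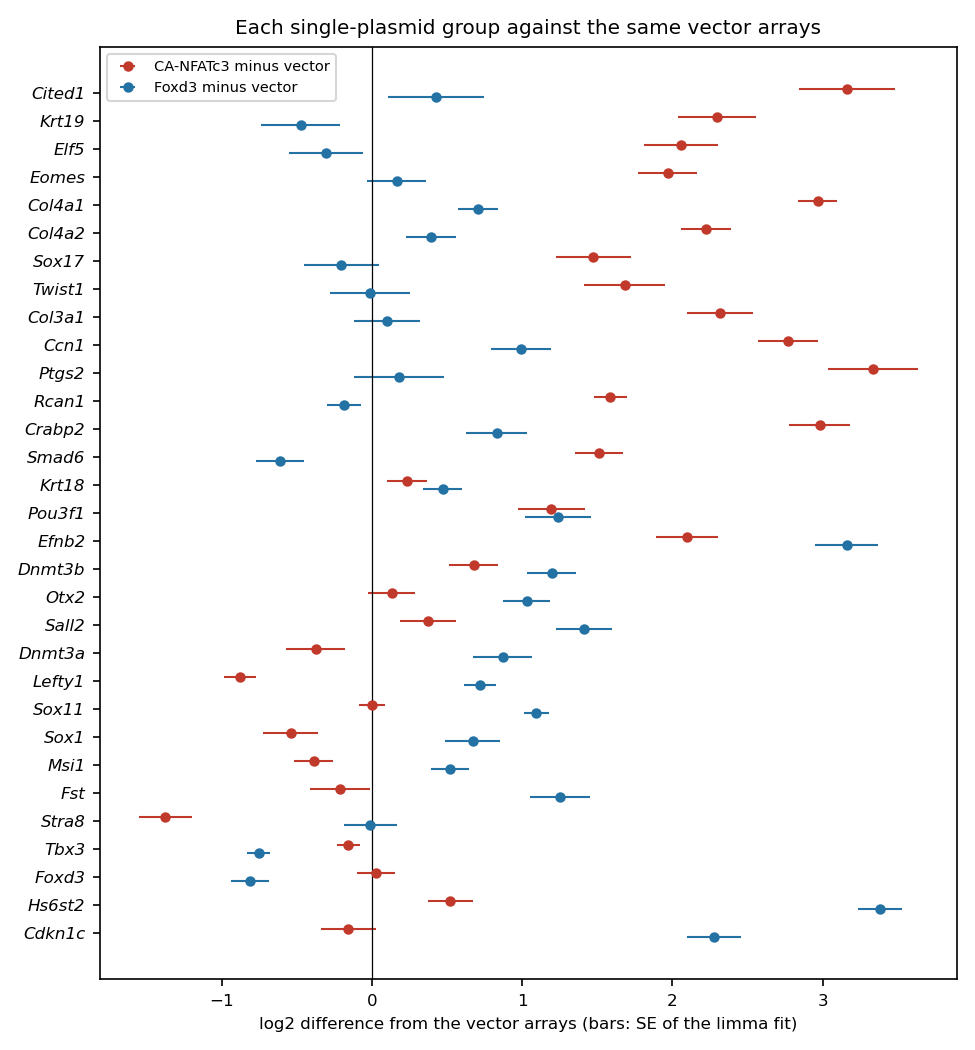
For 31 genes of the text, the points are the log2 differences from the vector arrays, CA-NFATc3 minus vector and Foxd3 minus vector, with the SE of the limma fit as bars; both use the same 3 vector arrays. Efnb2 and Pou3f1 lie above the vector with either plasmid alone, Hs6st2 and Cdkn1c with Foxd3, and Krt19, Elf5 and Sox17 with CA-NFATc3.

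Further lists had called shares on both sides of the 9.26% over all genes tested. They were 17.6% for cholesterol synthesis, 5.56% each for p53 targets and the stress response, and 7.14% for the interferon response. Of 17 cholesterol synthesis genes tested 3 were higher and 0 lower, with a median of 0.18: the regulator gene Srebf2 (0.44 ± 0.10, adjusted p 0.00962) and the enzyme genes Msmo1 (0.40 ± 0.08, 0.0058) and Cyp51 (0.38 ± 0.11, 0.0406). With probe sets averaged none of the 3 was called, and Cyp51 turned negative (-0.15). Cyp51 also lost its call without CA-NFATc3 replicate 1 or 3, Foxd3 replicate 2 or 3, vector replicate 3 or both-plasmid replicate 3 (adjusted p 0.0531 to 0.196). Of 18 p53 targets 1 was higher, the membrane protein gene Perp (0.98 ± 0.12, adjusted p 3.67e-05), and without CA-NFATc3 replicate 1 and Foxd3 replicate 2 in turn the count was 4 and 3. Of 18 genes of the integrated stress and unfolded protein response 1 was higher, the chaperone gene Sdf2l1 (0.41 ± 0.12), which lost its call without CA-NFATc3 replicate 1 or 2, Foxd3 replicate 2 or 3 or vector replicate 3 (adjusted p 0.0508 to 0.156). Of 14 interferon-response genes 1 was lower, the GTPase gene Gbp2 (at least 1.35-fold), which lost its call without CA-NFATc3 replicate 1 or 2, Foxd3 replicate 1 or 3 or both-plasmid replicate 3 (adjusted p 0.0526 to 0.177). The medians of these last 3 lists were 0.01, 0.03 and 0.12.

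Of 15 imprinted genes tested 3 were higher and 4 lower (46.7% called, against 9.26% over all genes tested), with a median of -0.07. Besides Igf2 and Peg10 the higher one was Sgce, epsilon-sarcoglycan (1.47 ± 0.23, adjusted p 0.000454), and besides Cdkn1c and Phlda2 the lower ones were the non-coding RNA Meg3 (-0.40 ± 0.09, 0.00681) and Gnas (-0.32 ± 0.07, 0.00681). Gnas lost its call when its probe sets were averaged (0.748). Of 16 germline and 2-cell genes 3 were higher and 2 lower (31.2% called), with a median of 0.26. The higher were the deubiquitinase gene Usp17la (1.08 ± 0.21, adjusted p 0.00272), Taf7l (1.06 ± 0.20, 0.00235) and Tex14 (0.54 ± 0.13), and the lower, besides Stra8, was the germ-cell factor gene Dmrt1 (-0.77 ± 0.13, 0.00135). Tex14 lost its call without CA-NFATc3 replicate 3 or Foxd3 replicate 1 (adjusted p 0.0534 to 0.0594).

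Of 14 blood and endothelial genes 1 was higher, the surface sialomucin gene Cd34 (1.17 ± 0.19, adjusted p 0.000813), and 1 lower, the blood factor gene Lmo2 (-0.77 ± 0.16, 0.00525). Of 5 markers of macrophages or blood cells, Ptprc, Lyz2 and Tyrobp were under the testing signal in all 6 arrays. Cd68, a lysosomal protein of macrophages, was tested and not called (-0.09, adjusted p 0.814), with 183 ± 11.2 in the CA-NFATc3 arrays and 197 ± 8.18 in the Foxd3 arrays. Csf1r, the receptor of the macrophage growth factor CSF1, was called higher, with 73.5, 66.3 and 123 in the CA-NFATc3 arrays, against 30.8, 45.9 and 30.2 in the Foxd3 arrays (at least 1.33-fold higher, adjusted p 0.0432). It lost its call without CA-NFATc3 replicate 1 or 3, Foxd3 replicate 1 or 3 or vector replicate 2 or 3 (adjusted p 0.0509 to 0.222). The part of such cells in the differences was not tested. Cdh5 and Emcn of endothelium were under the testing signal in all 6 arrays. Of 13 mesoderm and muscle genes 1 was higher (Bmp2) and 2 lower, the tropomyosin genes Tpm1 (-0.58 ± 0.13, 0.00679) and Tpm2 (-0.33 ± 0.09), the second of which lost its call without CA-NFATc3 replicate 3 or Foxd3 replicate 1 or 3 (adjusted p 0.0763 to 0.107). Tpm2 also lost its call when its probe sets were averaged (adjusted p 0.0679). The medians of these 2 lists were 0.14 and -0.03, and their called shares were 14.3% and 23.1%, against 9.26% over all genes tested.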

How the data were processed

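The deposited values are the intensity of each probe set as a linear MAS5 signal, made by the authors with MAS5 per the submitters' processing notes, which give no version. The mean without the lowest and highest 2% of values was 500.0 in every array, which reads as scaling by the authors. Background settings, detection calls and array batches were not stated in the labels. The median signal per array and the replicate correlations are given with the results, and with 3 arrays a group the number of arrays limits the precision.

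Of 45101 probe sets, 34945 had 1 gene symbol in the platform annotation, 932 had several and 9160 had none, and 64 were controls. For each of 18193 genes the probe set of highest mean over all 18 arrays stood for the gene. The values analysed were log2(signal + 32). Genes that reached 65.8, the median of all deposited values, in at least 3 of the 12 arrays of transfected cells were tested (11609). The means of the 4 transfected groups were estimated in 1 limma model (limma 3.58.1, R 4.3.3, eBayes with a trended prior variance) that had no covariates. All tests were two-sided. Benjamini-Hochberg adjustment ran over the genes tested, and genes with an adjusted p under 0.05 count as called. The fitting code was tested on simulated data. Python 3.11.15 and matplotlib 3.10.9 drew the figures. Promoters came from RefSeq on GRCm38.p6.

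Equal replicate numbers paired the arrays: residuals from the group means correlated at 0.104 to 0.315 in all 18 pairs with the same number, and at -0.282 to 0.0133 in the 36 pairs with different numbers. The blocked fit is given where it changes a result.

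Named genes were the 15 largest positive and 15 largest negative differences among called genes with separate groups, the called members with the largest differences in each list, and a set of always named factors. The comparison, the 30 lists and the rule were chosen with earlier results of these data known. Alternatives were quantile normalization, median centring, offsets of 0 and 100, no filter, a filter on the mean, the mean of a gene's probe sets, only the 2 groups or all 18 arrays in the fit, array weights, no variance trend, the replicate block, and leaving out each of the 12 arrays. The knockout cells were used only to choose probe sets and the testing signal, and in the fit of all arrays.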

Additional observations from a re-analysis of the deposited data

How the results depend on the processing

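The 127 genes followed through 24 other settings gave 2998 values where the filter on low signals let them be tested, of which 2873 kept their direction and side of the threshold, 111 lost a call, 13 gained one and 1 turned. That 1 was Cyp51, at -0.15 with the mean of its probe sets. Of 109 called genes among them, 78 kept the call in every setting in which they could be tested. The count of called genes was 1723 with the replicate block, 642 of them lower, and the block added the calls of Klf4, Tfcp2l1 and Dnmt3b to the genes followed and ended none of theirs. The block moved the count of members called in 1 direction by over 1.5 times in further lists: lower counts of 6 for Nodal, activin and BMP signalling, 2 each for trophectoderm, FGF, caveolae and actin regulators and 1 for p53 targets, and higher counts of 4 each for p53 targets and the stress response and 2 each for neuroectoderm, blood and endothelium, interferon response and replication. Leaving out 1 array at a time gave 657 to 1103 called genes, 417 to 754 higher and 220 to 350 lower. The lowest total and the lowest higher count came without CA-NFATc3 replicate 3, and the lowest count of lower genes without Foxd3 replicate 3. The other settings gave 782 (mean of probe sets) to 1439 (array weights), and no called gene reversed and stayed called in any setting. The cause of these changes was not tested. Signals near background set the size of the largest differences: the dimmer group was under the testing signal in 126 of the 733 higher and 30 of the 342 lower genes. Of the other probe sets of called genes that could be tested, 773 of 842 gave the same direction, 280 of them called, and 69 the opposite direction, 0 of them called in limma's fit over probe sets. Some list genes whose main probe set was not called had another that was called in that fit. Examples are Egr3 (2.09, adjusted p 3.06e-05) and H2-D1 (0.53, 0.0266) upward, and Ets1 (-0.81, 0.0325) and Mcm3 (-0.57, 0.0365) downward.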

Other observations

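The arrays of cells given both plasmids were in the fit but in neither side of the comparison. For 14 of the 15 largest rises with CA-NFATc3 over Foxd3, the mean with both plasmids was nearer on the log2 scale to that with Foxd3 alone, the exception being AU015836, and for all 15 of the largest falls it was nearer to Foxd3 as well. S100g read 33.3, 53.6 and 71.3 with both plasmids, Gsn 352, 276 and 278 and Hs6st2 807, 873 and 904. The median log2 distance of the group means, both minus CA-NFATc3, was -2.90 over the 15 rises and 1.74 over the 15 falls, and both minus Foxd3 it was 0.76 and -0.31. These are descriptions of genes chosen for a large difference between the single plasmids, and no test was run on them.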
